A study of Mus musculus with 6 samples.

Results

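Retinoic acid, the active form of vitamin A, is made in 2 steps from retinol, and 9 genes that make, carry, sense, degrade or take up retinoids were examined in RNA-seq of cultured mouse cardiomyocytes. They are the dehydrogenase genes Aldh1a1, Aldh1a2, Aldh1a3 and Aldh1a7, the binding protein genes Crabp1 and Crabp2, the receptor gene Rarb, the degrading enzyme gene Cyp26b1 and the uptake receptor gene Stra6. The genes were chosen by their place in the pathway with the values of the AdCre and AdGFP samples already known, so the differences given for them are a description with no test. All 9 were found among the 54532 genes listed, and 8 reached the mean of 0.5 FPKM asked of the 13794 genes that were tested. FPKM (fragments per kilobase of exon, relative to sequencing depth) is a level per length, so that levels of different genes can be set beside each other.

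Cells take up retinol through STRA6 or by diffusion, and dehydrogenases of the RDH and DHRS families convert it to retinaldehyde and back. The retinaldehyde dehydrogenases encoded by Aldh1a1, Aldh1a2 and Aldh1a3 oxidise retinaldehyde to retinoic acid. Inside the cell CRABP proteins carry retinoic acid to its nuclear receptors or to the CYP26 enzymes that break it down, and a receptor bound to it switches on target genes, among them Rarb and genes of the CYP26 family themselves. In the developing heart Aldh1a2 is the main source of retinoic acid and is known from the epicardium, the outer layer of the heart. Aldh1a7 is a rodent paralogue of Aldh1a1 that lies beside it, and its product is poorly active on retinaldehyde.

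The cells were primary cultures from hearts of neonatal mice with a modified Rit1 locus, from which RIT1 M90I is expressed once Cre has acted on it. RIT1 is a small GTPase of the RAS family, and its variants cause Noonan syndrome. The cells were grown in a medium with serum, itself a source of retinol, and were infected on day 3 after isolation with adenovirus. RNA was taken on a later day. The control virus encoded GFP (AdGFP, genotype given as Rit1 +/+, n = 3) and the other encoded GFP and Cre (AdCre, genotype Rit1 M90I/+, n = 3). Both groups carried the unrecombined locus at the start and both received a virus. No culture without the engineered locus was given Cre, and the effects of the variant and of Cre itself therefore cannot be told apart. The hearts were freed of clots and aorta, digested, and depleted of cells that stick to plastic with no sorting by a marker, and a heart provided about 1 well. The labels call the samples biological replicates without naming animals or litters.

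The AdGFP samples held 25.3 to 26.5 M reads (M, megareads) and the AdCre samples 26.0 to 32.4 M reads, as recovered from the deposited FPKM. Rit1 stood at 7.66, 8.99 and 9.01 FPKM in AdGFP 1 to 3 and at 8.90, 9.10 and 9.58 FPKM in AdCre 1 to 3, and these gene-level values hold both alleles. All 10 cardiomyocyte markers were detected in every sample, with a sum of 6571 to 11370 FPKM in AdGFP and of 3784 to 5799 FPKM in AdCre that was carried mostly by Actc1 and Nppa, while Ttn and Myh7 had group means under 10 FPKM. Markers of epicardium, fibroblasts, endothelium, mural cells and macrophages were present too. Same-numbered AdGFP and AdCre samples deviated together from their group means, and differences within these 3 pairs are therefore given beside those between groups. In such bulk samples fewer cells of a type and less RNA per cell cannot be told apart.

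Aldh1a1 and Aldh1a7 are neighbours on chromosome 19 in opposite orientation, Aldh1a1 (ENSMUSG00000053279) at chr19:20492715-20643465 on the plus strand and Aldh1a7 (ENSMUSG00000024747) at chr19:20692953-20727562 on the minus strand (GRCm38, GENCODE M21). Their coding sequences, each of 1506 bases, were identical at 91.6% of positions, whereas the other pairs among the 4 dehydrogenase genes shared between 65.6% and 67.9%. The stretch with the longest identical run (100 bases) is shown because reads that lie wholly inside such a run fit both genes. It covers coding positions 697 to 916, joined over exons 7 to 9 (chr19:20624775-20630731 for Aldh1a1 and chr19:20708269-20714731 for Aldh1a7, introns left out), and capitals mark the 20 of 220 bases that differ:
Aldh1a1: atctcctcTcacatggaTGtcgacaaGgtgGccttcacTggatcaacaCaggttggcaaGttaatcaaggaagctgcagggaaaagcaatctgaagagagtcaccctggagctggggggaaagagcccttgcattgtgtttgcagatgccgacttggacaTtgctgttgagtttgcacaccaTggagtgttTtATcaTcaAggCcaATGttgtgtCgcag
Aldh1a7: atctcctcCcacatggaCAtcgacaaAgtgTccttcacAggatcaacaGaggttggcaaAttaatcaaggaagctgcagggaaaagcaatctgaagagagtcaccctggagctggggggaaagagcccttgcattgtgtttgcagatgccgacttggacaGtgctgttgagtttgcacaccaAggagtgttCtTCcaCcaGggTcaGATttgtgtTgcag
Over whole transcripts, 151 words of 50 bases occurred in both genes, or 3.06% of those of Aldh1a1 and 7.49% of those of Aldh1a7. Reads inside these words could have been given to either gene or dropped. Aldh1a1 held more reads than Aldh1a7 in every sample, 424 against 21 in AdCre replicate 1. Reads misplaced from Aldh1a1 could therefore be a larger part of the Aldh1a7 level than these shares, and their number is not known.

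The likeness extends upstream of the genes. RefSeq gives 2 starts for Aldh1a1 in GRCm38.p6, and the window of 250 bases before the downstream start, at 20601968, is the one alike to that of Aldh1a7. Between these windows 208 of 225 aligned bases were identical, or 92.4%. The 110 bases next to these starts are shown because the windows align there without gaps. Their part in the levels of the genes was not tested. They lie at chr19:20601858-20601967 on the plus strand for Aldh1a1 and chr19:20727557-20727666 on the minus strand for Aldh1a7, and capitals mark the 6 bases that differ:
Aldh1a1: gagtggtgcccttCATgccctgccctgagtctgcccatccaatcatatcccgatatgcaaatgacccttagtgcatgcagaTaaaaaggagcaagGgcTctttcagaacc
Aldh1a7: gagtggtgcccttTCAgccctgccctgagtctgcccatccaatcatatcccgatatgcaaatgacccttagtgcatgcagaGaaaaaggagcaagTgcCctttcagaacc

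Aldh1a1 encodes a cytosolic retinaldehyde dehydrogenase. Its level was 9.51, 15.8 and 29.6 FPKM in AdGFP 1 to 3 and 2.68, 6.03 and 11.9 FPKM in AdCre 1 to 3. Within each group replicate 3 was the highest and replicate 1 the lowest, by 3.11-fold in AdGFP and by 4.45-fold in AdCre, and the highest AdCre sample lay above the lowest AdGFP sample. The group means were 18.3 ± 10.3 and 6.88 ± 4.68 FPKM (SD, n = 3 each), a difference of -1.49 with a standard error of 0.59 on the log2(FPKM + 0.1) scale that is used for all differences. Inside the pairs the differences were close to each other at -1.79, -1.37 and -1.30, and with the replicate number as a block the standard error was 0.12. Without AdCre replicate 1 the group difference was -0.95. The values rested on 1160, 1975 and 3599 reads in AdGFP and on 424, 768 and 1631 reads in AdCre.

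Aldh1a7 was lower in AdCre with no overlap of the groups. It stood at 7.60, 10.8 and 7.38 FPKM in AdGFP 1 to 3 and at 0.317, 2.16 and 1.66 FPKM in AdCre 1 to 3. The AdGFP mean of 8.60 ± 1.93 FPKM was 6.24 times the AdCre mean of 1.38 ± 0.951 FPKM (SD, n = 3 each). On the log2 scale the difference was -2.86 (standard error 0.60), and it was -4.21, -2.28 and -2.09 in pairs 1 to 3. AdCre replicate 1, the lowest sample for both paralogues, held 21 reads of Aldh1a7, against 115 and 95 in the other AdCre samples and 376 to 567 in AdGFP.

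The paralogues did not follow each other sample by sample. Over the AdGFP samples Aldh1a7 varied by 1.47-fold where Aldh1a1 varied by 3.11-fold, and the Aldh1a1 level was 1.25, 1.46 and 4.01 times that of Aldh1a7. In the AdCre samples this ratio was 8.45, 2.80 and 7.19, so it overlapped between the groups. The summed level of the pair was 17.1, 26.6 and 37.0 FPKM in AdGFP 1 to 3 and 3.00, 8.18 and 13.6 FPKM in AdCre 1 to 3, without overlap.

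**Figure D1:**
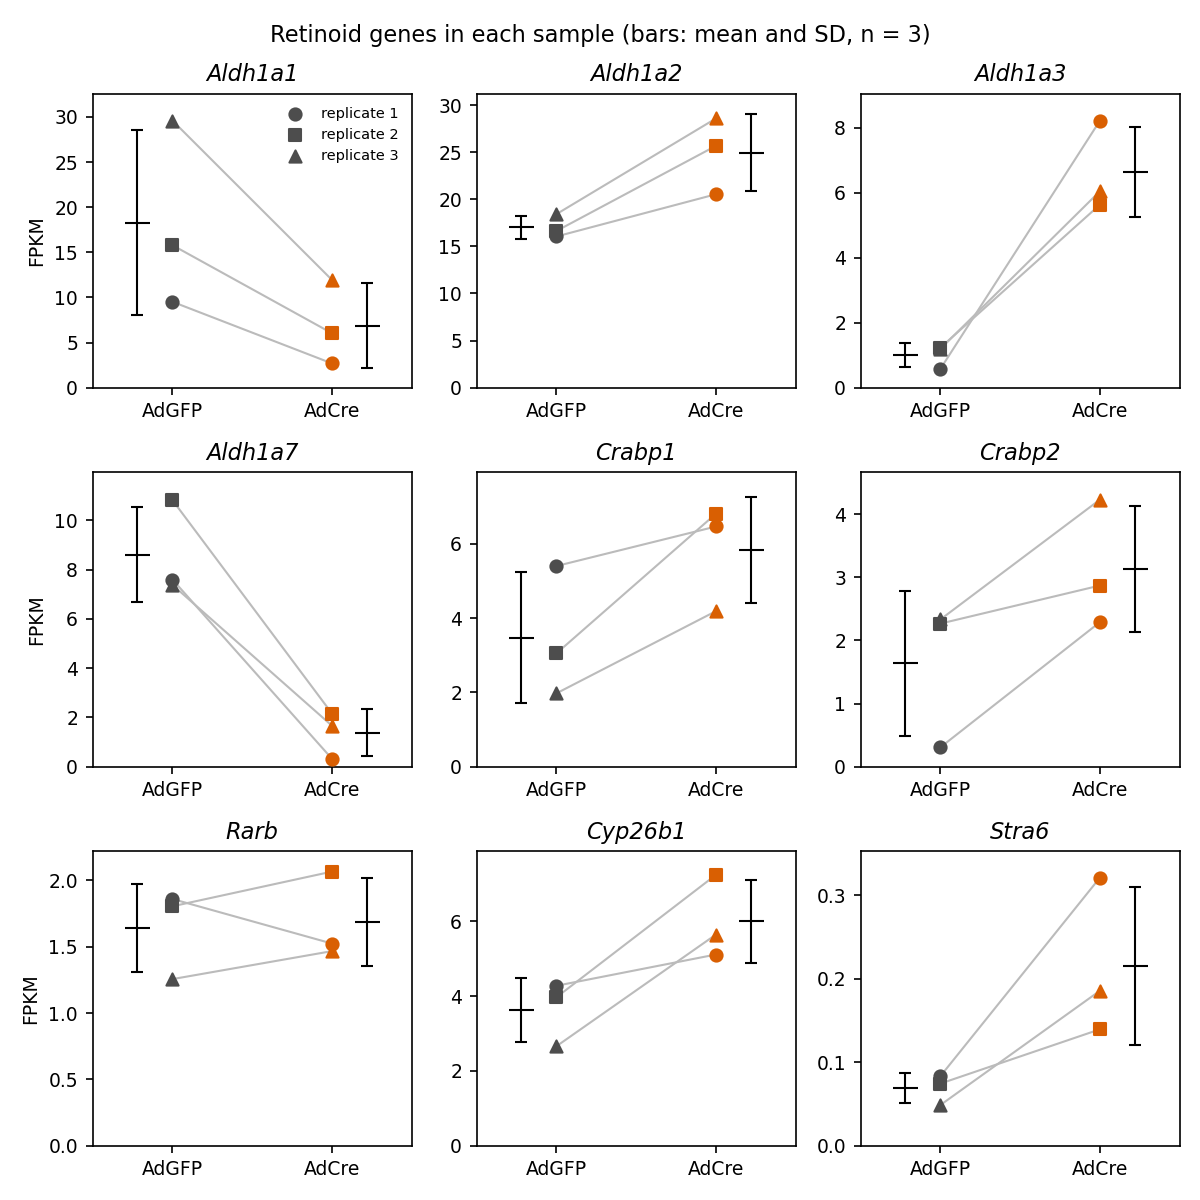
FPKM of the 9 retinoid genes, 1 panel per gene with its own axis from 0; grey points are AdGFP and orange points AdCre samples, marker shapes give the replicate number, lines join same-numbered samples, and black bars give the mean and SD (n = 3). All 3 lines run down for Aldh1a1 and Aldh1a7, cross for Rarb and run up for the other genes, and the groups do not overlap for Aldh1a2, Aldh1a3, Aldh1a7, Cyp26b1 and Stra6.

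Aldh1a2 and Aldh1a3 were both higher in AdCre, from very different starting levels. Aldh1a2 (ENSMUSG00000013584, chr9:71215789-71296243, plus strand) encodes the main retinaldehyde dehydrogenase of the embryo. It stood at 16.0, 16.6 and 18.4 FPKM in AdGFP 1 to 3 and at 20.5, 25.7 and 28.6 FPKM in AdCre 1 to 3. Every AdCre sample was above every AdGFP sample, with means of 17.0 ± 1.24 and 24.9 ± 4.08 FPKM (SD, n = 3 each) and a difference of 0.54 (standard error 0.15). The pairs differed by 0.35, 0.62 and 0.63. Its spread within groups was at percentile 35.0 of the tested genes, while that of Aldh1a1 was at percentile 96.3.

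Aldh1a3 (ENSMUSG00000015134, chr7:66390890-66427517, minus strand), the third of the retinaldehyde dehydrogenase genes, was near 1 FPKM in the control cultures. It measured 0.578, 1.23 and 1.19 FPKM in AdGFP 1 to 3 and 8.22, 5.64 and 6.05 FPKM in AdCre 1 to 3. Replicate 1 held both the lowest AdGFP and the highest AdCre value, on 66 and 1216 reads. The means were 1.00 ± 0.366 FPKM in AdGFP and 6.64 ± 1.39 FPKM in AdCre (SD, n = 3 each), a ratio of 6.63, and the difference was 2.66 with a standard error of 0.30. In pairs 1 to 3 it was 3.62, 2.11 and 2.25. Without replicate 1 in both groups the blocked difference was 2.18, and with a pseudocount of 1 in place of 0.1 it was 1.93.

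The 3 retinaldehyde dehydrogenases together had summed levels that overlapped between the groups, while the shares of Aldh1a1 and Aldh1a3 in the sum did not. Their summed level was 26.1, 33.6 and 49.2 FPKM in AdGFP 1 to 3 and 31.4, 37.3 and 46.6 FPKM in AdCre 1 to 3. The means of the sum were 36.3 ± 11.8 and 38.4 ± 7.62 FPKM (SD, n = 3 each), and the groups overlapped. Aldh1a1 held 36.4%, 46.9% and 60.1% of the sum in AdGFP 1 to 3 and 8.53%, 16.1% and 25.6% in AdCre 1 to 3. Its share did not overlap between the groups. The share of Aldh1a3 was 2.21%, 3.66% and 2.43% in AdGFP and 26.2%, 15.1% and 13.0% in AdCre, again without overlap. The largest share in AdCre was that of Aldh1a2, with 65.3%, 68.8% and 61.4% in AdCre 1 to 3 against 61.4%, 49.4% and 37.4% in AdGFP 1 to 3. AdGFP replicate 1 and AdCre replicate 3 had nearly the same Aldh1a2 share, so these shares overlapped. FPKM counts transcripts and not enzyme, and neither enzyme activity nor retinoic acid was measured.

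**Figure D2:**
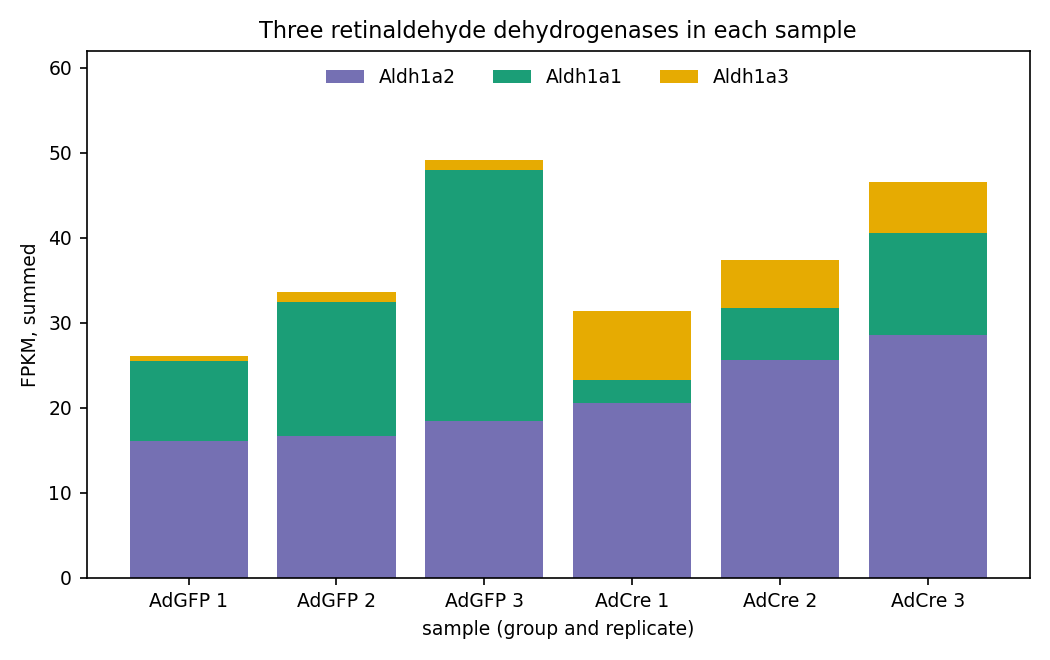
Summed FPKM of Aldh1a2 (purple), Aldh1a1 (green) and Aldh1a3 (yellow) in each of the 6 samples, as stacked bars from 0. The total bar heights overlap between AdGFP (26.1 to 49.2) and AdCre (31.4 to 46.6), whereas the green part is smaller and the yellow part larger in the AdCre bars.

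CRABP1 and CRABP2 carry retinoic acid in the cytosol, CRABP2 to the nuclear receptors. Crabp1 (ENSMUSG00000032291, chr9:54764748-54773110, plus strand) stood at 5.40, 3.05 and 1.97 FPKM in AdGFP 1 to 3 and at 6.46, 6.81 and 4.19 FPKM in AdCre 1 to 3. Values in AdCre were higher in each pair, by 0.26, 1.13 and 1.048, although the lowest AdCre sample lay below the highest AdGFP sample. The group difference was 0.81 with a standard error of 0.37, and 0.48 without AdGFP replicate 3. Crabp2 (ENSMUSG00000004885, chr3:87948666-87953376, plus strand) stood at 0.306, 2.27 and 2.33 FPKM in AdGFP 1 to 3 and at 2.29, 2.87 and 4.23 FPKM in AdCre 1 to 3. AdGFP replicate 1 was far below all the others on 10 reads, and the 2.56 of pair 1 set much of the difference of 1.24 (standard error 0.69), which was 0.39 without that sample and 0.74 with a pseudocount of 1. In pairs 2 and 3 the difference was 0.33 and 0.83.

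CYP26B1 hydroxylates retinoic acid and so removes it, and its gene is itself responsive to retinoic acid in many tissues. Cyp26b1 (ENSMUSG00000063415, chr6:84571414-84593908, minus strand) stood at 4.28, 3.97 and 2.66 FPKM in AdGFP 1 to 3 and at 5.12, 7.25 and 5.65 FPKM in AdCre 1 to 3, on 351 to 1002 reads. All AdCre values were above all AdGFP values. The means were 3.64 ± 0.859 and 6.01 ± 1.11 FPKM (SD, n = 3 each), and the difference was 0.72 with a standard error of 0.22 (0.25, 0.85 and 1.06 in pairs 1 to 3). The related Cyp26a1 and Cyp26c1, which degrade retinoic acid as well, stayed under the level asked for a test, with at most 0.407 and 0.186 FPKM in any sample.

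Rarb encodes retinoic acid receptor beta, the best known direct target of the pathway. Its promoter is shown because it carries the response element by which the gene is known to be induced. In the RefSeq window of GRCm38.p6, a direct repeat of a hexamer with 5 bases between the copies lay 53 to 37 bases before the start (chr14:16575493-16575549, minus strand, the hexamers in capitals):
Rarb: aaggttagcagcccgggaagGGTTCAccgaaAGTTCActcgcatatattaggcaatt
The hexamers searched were AGGTCA or GGGTCA or AGTTCA or GGTTCA, on both strands, in windows from 250 bases before to 50 after the start, and other nuclear receptors bind the same letters. Repeats with 5 bases between occurred in 32 of 32851 windows, or 0.0974%, and repeats with 1, 2 or 5 bases between in 0.588%. Windows were found for 7 of the 9 genes, with none for Aldh1a3 and Crabp2, and the repeat was found in that of Rarb alone. A single hexamer, which 43.7% of all windows hold, was present in windows of Aldh1a1, Aldh1a7, Rarb and Stra6.

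The Rarb level did not separate the groups. The gene (ENSMUSG00000017491, chr14:16430839-16819156, minus strand) stood at 1.86, 1.80 and 1.26 FPKM in AdGFP 1 to 3 and at 1.52, 2.07 and 1.47 FPKM in AdCre 1 to 3. The means were 1.64 ± 0.334 and 1.69 ± 0.331 FPKM (SD, n = 3 each), with a difference of 0.04 and a standard error of 0.23. It was -0.13 without AdGFP replicate 3 and -0.11 without AdCre replicate 2. Pair 1 was lower in AdCre by 0.27 on the log2 scale, while pairs 2 and 3 were higher by 0.19 and 0.21. Opposite-strand exons cover 38.4% of the Rarb exon bases, most of them exons of Top2b, and whether the counting used strand is not given in the sources used here. Reads of Rarb and of these genes might therefore be mixed.

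STRA6 is the membrane receptor that brings retinol from its plasma carrier into the cell. Stra6 (ENSMUSG00000032327, chr9:58063788-58153996, plus strand) was barely detected, with 0.0833, 0.0744 and 0.0487 FPKM in AdGFP 1 to 3 and 0.321, 0.140 and 0.186 FPKM in AdCre 1 to 3. These values rest on 12, 11 and 7 reads in AdGFP and on 60, 21 and 30 reads in AdCre. The AdCre values were above the AdGFP values without overlap, with a ratio of the means of 3.13, and the gene was too low to be fitted.

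**Figure D3:**
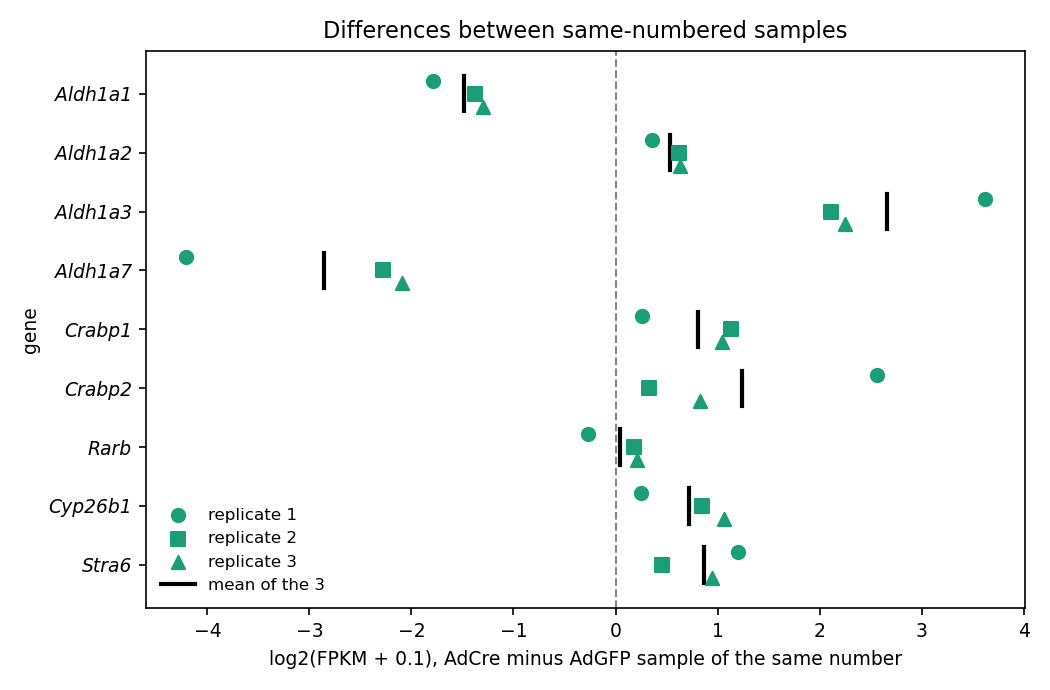
Differences in log2(FPKM + 0.1) between the AdCre and the AdGFP sample of the same number for the 9 genes; marker shapes give the replicate number, offset vertically for legibility, and black lines the mean of the 3. Aldh1a1 and Aldh1a7 lie left of 0 in all pairs, Rarb lies on both sides, and the other 6 genes lie right of 0, with pair 1 farther out than pairs 2 and 3 by more than 1 for Aldh1a3, Aldh1a7 and Crabp2.

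Ordered by mean level, the AdGFP samples had Aldh1a1 and Aldh1a2 at the top with overlapping ranges, then Aldh1a7, apart from Aldh1a2 but overlapping with Aldh1a1, then Cyp26b1 and Crabp1, which overlapped, then Rarb, Crabp2 and Aldh1a3, each overlapping with the next, and Stra6 apart at the bottom. In the AdCre samples Aldh1a2 stood alone at the top. Aldh1a1, Aldh1a3, Cyp26b1 and Crabp1 followed with means between 5.82 and 6.88 FPKM, each range overlapping with the next. Crabp2 came after them without overlap with Rarb, and Rarb, Aldh1a7 and Stra6 closed the order with overlapping neighbours. Aldh1a7 thus moved from position 3 to position 8 of 9, and Aldh1a3 from position 8 to position 3.

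Counts of calls are given only as a description, because the genes were chosen on this contrast. In limma without a block, 0 of the 8 fitted genes had an adjusted p under 0.05 against 0.00725% of all tested genes called, and 5 had an unadjusted p under 0.05, as had 10.2% of all tested genes. With the replicate block, Aldh1a2 and Aldh1a3 were called higher, where 2.64% of all genes were, and Aldh1a1 and Aldh1a7 lower, where 3.51% were. These calls depended on the pairs kept and on the fit. In the blocked fit 6 of the 8 were called without pair 1, 2 without pair 2, 0 without pair 3, 0 without the filter on low values and 0 without the intensity trend. Over all tested genes, 324 were called higher and 448 lower without pair 1, 50 and 99 without pair 2, 1 and 0 without pair 3, 11 and 6 without the filter, and 0 and 0 without the trend. No overlap of the groups was seen for 3 fitted genes higher in AdCre and for 1 lower, against 7.36% and 8.02% of all tested genes. Among the 8 genes, 7 had the same direction in all 3 pairs, as had 48.4% of all tested genes.

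The other genes of the pathway were called about as often as genes in general. The 76 other genes came from 6 lists written from general knowledge of the pathway and of the aldehyde dehydrogenase family. Of these, 50 were at the level asked for a test. On the log2 scale, used for all such counts of means, 20 were higher and 30 lower in AdCre (26 and 24 after rescaling to TPM). Their median difference was -0.06, against -0.002 over all tested genes (0.022 and 0.09 after rescaling to TPM), and the median size of their differences was 0.18, against 0.17. Without the block 0 of the 50 passed, and 5 (Lpl, Dhrs9, Rdh14, Ncoa1 and Aldh2), or 10%, had an unadjusted p under 0.05, against 10.2% of all tested genes. With the block 0 rose, against 2.64% of all genes, and 2 fell, Lpl and Dhrs3, or 4% against 3.51%. An unadjusted p under 0.05 was then found for 14, or 28%, against 24.7% of all genes.

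Among the 10 tested genes that interconvert retinol and retinaldehyde, 2 had a higher and 8 a lower log2 mean in AdCre (4 and 6 after rescaling to TPM). Dhrs3, whose product reduces retinaldehyde back to retinol, stood at 6.22, 9.94 and 16.6 FPKM in AdGFP 1 to 3 and at 4.34, 6.48 and 9.78 FPKM in AdCre 1 to 3. The samples are ordered by replicate as for Aldh1a1, and the groups overlapped. It fell by 0.63 with the block (limma adjusted p = 0.0269), was lower in all 3 pairs, and had an adjusted p of 0.683 without the block. With AdGFP replicate 3 left out the difference was -0.27, with AdGFP replicate 1 left out it was -0.97, and leaving out AdCre replicate 1 gave -0.34. That call was lost without pair 2 (adjusted p = 0.101) and without pair 3 (0.130), without the filter on low values (0.0842) and without the intensity trend (0.0803). Dhrs9, another retinol dehydrogenase, measured 3.50 ± 1.047 FPKM in AdGFP and 1.84 ± 0.385 FPKM in AdCre (SD, n = 3 each) with no overlap (limma difference -0.87, adjusted p 0.340, and 0.118 with the block). Rdh14 and the aldo-keto reductase gene Akr1b8 differed by -0.37 and 0.23 (adjusted p 0.471 and 0.588). Rdh10, the main retinol dehydrogenase of the embryo, stood at 2.81 ± 0.377 and 2.82 ± 0.781 FPKM.

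Of the 4 tested genes for uptake and storage of retinol, 0 rose and 1 fell with the block. Lpl, the lipoprotein lipase that also frees retinol from circulating esters and is abundant in heart muscle, stood at 108.8, 139.2 and 107.0 FPKM in AdGFP 1 to 3 and at 72.3, 98.2 and 68.4 FPKM in AdCre 1 to 3, without overlap. It fell by 0.58 with the block (limma adjusted p = 0.0198), and its adjusted p without the block was 0.367. That call too was lost without pair 2 (adjusted p = 0.0697), without pair 3 (0.103), without the filter (0.0788) and without the trend (0.0799). Dgat1, which esterifies retinol as well as diacylglycerol, and Rbp4, the plasma retinol carrier, differed by -0.25 and 0.49 (adjusted p 0.520 and 0.759).

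Of the 11 tested receptor and cofactor genes, 0 passed in either direction with or without the block, 7 with a higher and 4 with a lower mean (9 and 2 after rescaling to TPM). The receptor Rara stood at 10.5 ± 0.957 and 10.5 ± 0.637 FPKM, and Rarg and Rxra each differed by 0.17 (adjusted p 0.846 and 0.827). The coactivator Ncoa1 differed by -0.34 and the nuclear receptor Ppard by 0.21 (adjusted p 0.486 and 0.726). Of the 11 tested genes listed as responsive to retinoic acid, 0 passed, and 2 had a higher and 9 a lower mean. Tgm2, which encodes tissue transglutaminase, had 142.7 ± 93.0 FPKM in AdGFP and 82.9 ± 13.4 FPKM in AdCre with AdGFP replicate 1 alone at 249.5 FPKM (difference -0.61, adjusted p 0.694). The chemokine gene Rarres2 and the cardiac transcription factor gene Tbx5 differed by -0.40 and -0.30 (adjusted p 0.588 and 0.694). Opposite-strand exons cover 33.6% of the Rarres2 exon bases and 21.8% of those of Tgm2. Fabp5, which carries retinoic acid to PPAR delta and was the only tested gene of its list, differed by -0.23 (adjusted p 0.812).

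Of the 13 other tested aldehyde dehydrogenase genes, 0 passed with or without the block, 7 with a higher and 6 with a lower mean. Aldh2, the mitochondrial enzyme that clears acetaldehyde, stood at 11.9, 17.4 and 17.5 FPKM in AdGFP 1 to 3 and at 18.7, 20.99 and 23.8 FPKM in AdCre 1 to 3, without overlap. Its difference was 0.45 ± 0.19 (SE; limma adjusted p 0.482, and 0.0534 with the block, which became 0.0432 after rescaling to TPM and 0.0493 after quantile normalization). Aldh1b1 and Aldh4a1, both mitochondrial, differed by -0.29 and 0.25 (adjusted p 0.544 and 0.594). Differences of the size seen for Aldh1a3 and Aldh1a7 were not found among the tested relatives outside the group, whose largest mean difference was the 0.55 of Aldh1l1, a folate enzyme gene.

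**Figure D4:**
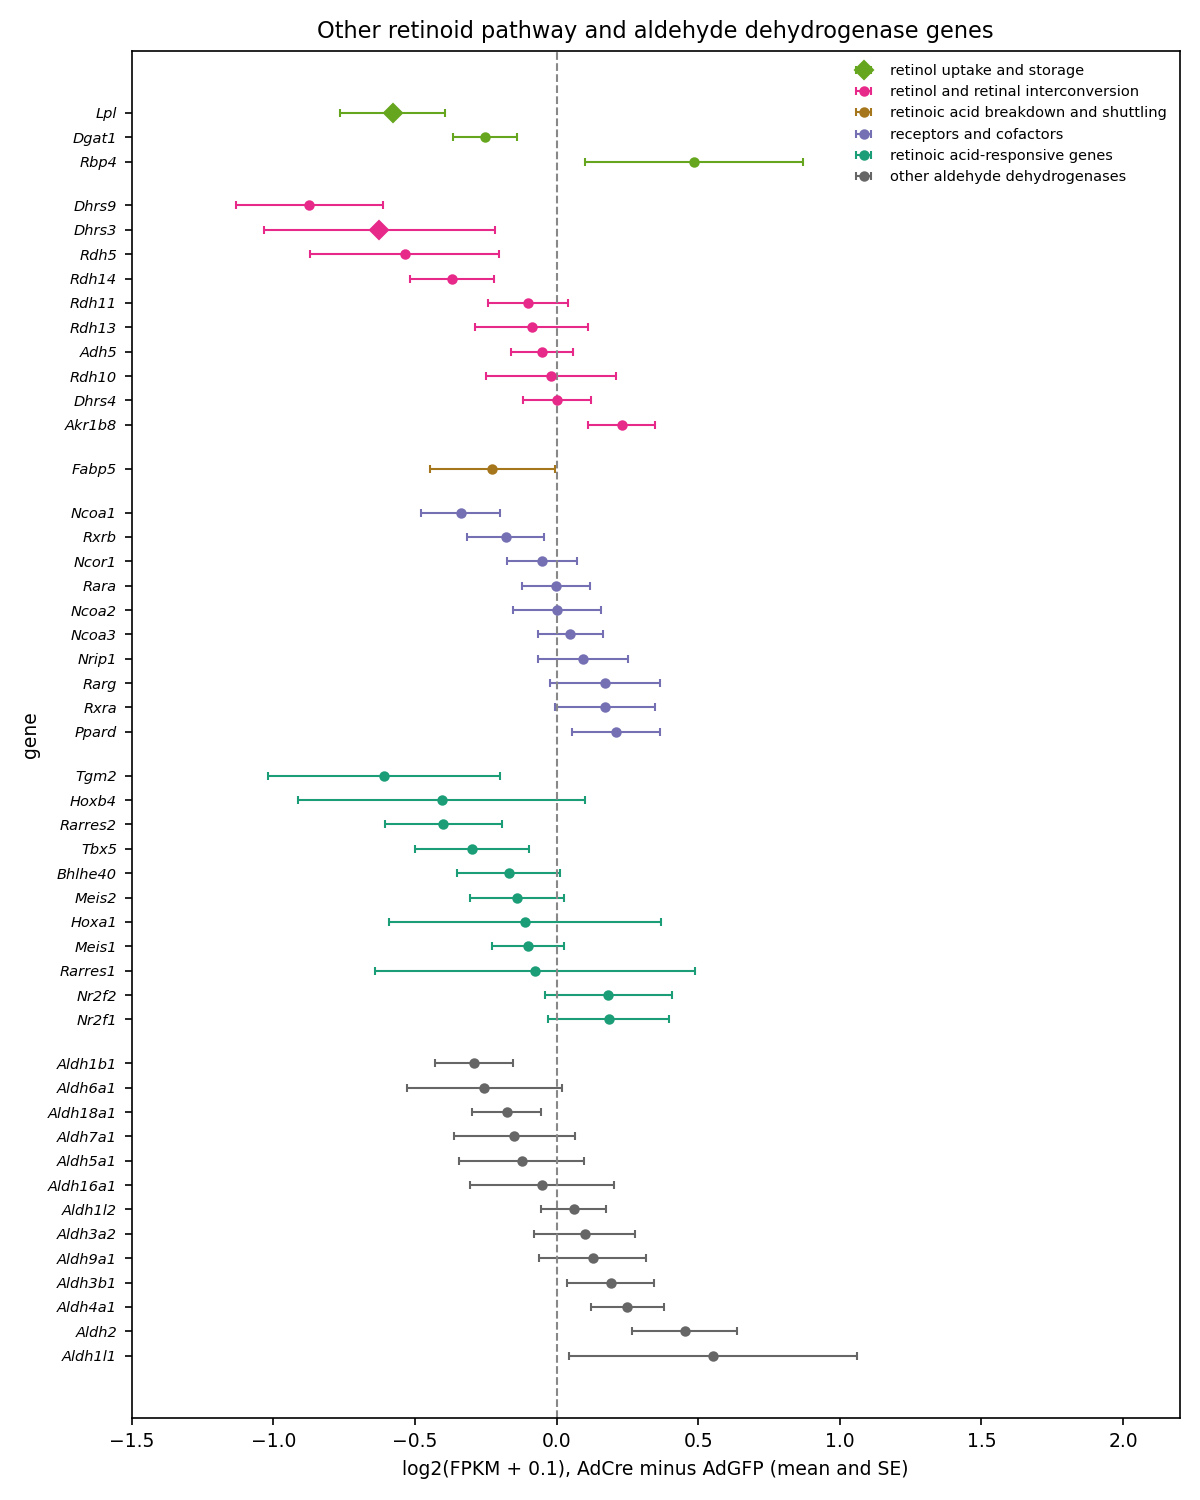
Differences in log2(FPKM + 0.1), AdCre minus AdGFP, with standard errors (n = 3 each, fit without the block) for 48 of the 50 tested genes of the 6 lists, coloured by list; large diamonds are the 2 genes that passed with the replicate block, Lpl and Dhrs3. Points lie between -0.87 (Dhrs9) and 0.55 (Aldh1l1), on both sides of 0.

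The genes whose sample-to-sample profile was most like that of each enzyme were found from the root mean square difference between mean-centred log2 profiles over the 6 samples. For Aldh1a1 they were the small nucleolar RNA gene Gm24564, the long non-coding RNA gene Gm13431 and Gabra3, a GABA receptor subunit gene, at 0.20, 0.22 and 0.28, where the median over all genes was 1.10. In AdCre replicate 1 these genes stood at 0.416, 0.266 and 0.278 FPKM, so the likeness rests partly on low values. In the order of Aldh1a1 the fibroblast marker Dcn was at position 12, Dhrs3 at 48 and the fibroblast marker Lum at 63. The epicardial and mesothelial marker Gpm6a was at 91. These positions were looked up after the values were seen, and those of the other markers were not looked up. For Aldh1a2 the closest genes were Irak3, Serpine2 and Tmem204, each at 0.06 (median 0.39). For Aldh1a7 they were Itgb1bp2, a muscle gene, Tcp11x2 and D830005E20Rik, at 0.67 to 0.69 (median 1.65), and Aldh1a1 was at position 41, whereas Aldh1a7 was at position 2540 in the order of Aldh1a1. Tcp11x2 and D830005E20Rik were low too, at 0.0879 and 0.0368 FPKM in AdCre replicate 1.

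Markers of other cells differed between samples along with these genes. Dcn stood at 15.9, 32.6 and 72.7 FPKM in AdGFP 1 to 3 and at 10.4, 19.8 and 35.2 FPKM in AdCre 1 to 3, ordered by replicate as Aldh1a1 was, and it fell with the block (limma adjusted p = 0.0230, and 0.755 without it). Of the 8 fibroblast markers 6 were lower in AdCre on the log2 scale, and 3 were called lower with the block (Col3a1, Dcn and Lum). The 8 markers summed to 2870 to 5520 FPKM in AdGFP and to 2612 to 4045 FPKM in AdCre. Of the 12 epicardial and mesothelial markers 9 were lower and 3 higher in AdCre on the log2 scale. The keratin genes Krt8 and Krt18 rose with the block (limma adjusted p = 0.0269 and 0.0432), whereas Tbx18, Gpm6a and Lrrn4 fell (adjusted p = 0.0441, 0.0244 and 0.0492), of which Gpm6a alone also passed after rescaling to TPM or quantile normalization. Wt1, a defining epicardial gene, was at 2.24 to 7.12 FPKM in AdGFP and 1.69 to 5.58 FPKM in AdCre. The list summed to 298 to 526 and 399 to 542 FPKM. All 10 cardiomyocyte markers had a lower mean in AdCre (median difference -0.80), 6 of them called lower with the block (Tnnt2, Tnni3, Mybpc3, Ryr2, Pln and Nppa). All 8 endothelial and all 7 tested macrophage markers had a higher mean (medians 0.38 and 0.51), and 3 of the former (Cdh5, Flt1 and Egfl7) and 2 of the latter (Lyz2 and C1qb) were called higher with the block. In the same fit 2.64% of all tested genes were called higher and 3.51% lower, and these all-gene counts fell to 1 and 0 without pair 3 and to 0 and 0 without the trend. Without the block 0 markers were called. Col3a1 was not called after any of TPM rescaling, median centring and quantile normalization, and Nppa was not called after TPM rescaling or quantile normalization. These directions of the means held after rescaling to TPM, median centring and quantile normalization. Endothelial markers summed to 48.2 to 78.1 FPKM in AdGFP and 67.4 to 104.3 FPKM in AdCre, and macrophage markers to 49.3 to 268.3 and 87.8 to 337.2 FPKM. Of the 8 mural markers 6 had a higher mean in AdCre, with sums of 849 to 1327 and 1009 to 1223 FPKM, and none of the 6 erythroid markers reached the level for a test. The part of these cell types in the differences of the retinoid genes was not tested.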

How the data were processed

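The deposited file holds 1 FPKM value per gene and sample, made by the authors and not pooled over replicates. The submitters' processing notes name fastp, STAR 2.5, HTSeq 0.6.1 and mm10, while annotation and strand setting are not given in the sources used here. Messenger RNA had been selected with poly-T beads and primed at random. Symbols and coordinates were taken from GENCODE M21 for 54495 of 54532 gene IDs. FPKM times exon length gave whole multiples of 1 step per sample (tolerance 0.05) for about 97.5% of the lower values, and reads behind a value come from that step. For Aldh1a1 a length of 4934 bases, not the annotated 4937, gave whole reads.

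The members and the gene lists were chosen with earlier results of these data known. The 13794 genes whose mean reached 0.5 FPKM were fitted on log2(FPKM + 0.1) by group (limma 3.58.1 in R 4.3.3), with eBayes, an intensity trend and Benjamini-Hochberg adjustment over all genes (two-sided, called under 0.05). Differences and counts of genes with a higher or lower mean are on that scale, which understates the differences of low genes. With 3 samples against 3 an exact permutation test cannot give less than 0.1. The p-values set the difference between groups against the spread between these samples, or with the block against that of the differences inside pairs. Either spread may be partly technical.

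The labels number replicates 1 to 3 in both groups. Deviations from the group means correlated across genes at 0.568, 0.268 and 0.506 between same-numbered samples and at -0.497 to 0.036 otherwise, and equal numbers are treated as pairs from these values alone. Blocked p-values or calls stand beside results whose call they change.

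Named genes were the 9 members, Rit1, the 3 tested genes with the smallest p in each of the 6 lists, any gene of those called with or without the block, and the 3 genes most alike in profile to Aldh1a1, Aldh1a2 and Aldh1a7. Rara, Rarg, Rxra, Rdh10, Cyp26a1, Cyp26c1 and Aldh1l1 and single markers were named after their values were seen, and 2 genes of the lists are counted but not reported here. Alternatives were other pseudocounts and filters, rescaling to TPM, median centring, quantile normalization, no trend, the block and leaving out each sample. The fit was also run on simulated data with the same spread for every gene. Such data cannot show how it behaves for genes of wide spread, such as Aldh1a1. Sequences are from RefSeq windows and the reference genome, read with Biopython 1.88. Figures were drawn with matplotlib 3.10.9.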

Additional observations from a re-analysis of the deposited data

How the results depend on the processing

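Over 23 alternatives for each of the 8 fitted members, 182 of 184 differences stayed within 1 SD of the value given, 2 moved (Aldh1a3, to 1.93 with a pseudocount of 1 and to 2.18 with the block and without replicate 1), and the direction changed for Rarb alone. That SD is wide for these genes, and leaving out a sample took Aldh1a1 to -0.95, Crabp1 to 0.48 and Crabp2 to 0.39 at the smallest. Rarb, at 0.04 as given, was lower in AdCre in 4 of 23, down to -0.13. The count of genes called higher in AdCre was 1 as given, 3 with a pseudocount of 1, 0 without the filter on low values, 3 without the trend, 364 with the replicate block and 0 to 2 when a sample was left out. The count called lower was 0, with 1 without the trend and 484 with the block. The blocked counts of 364 and 484 became 324 and 448 without pair 1, 50 and 99 without pair 2, 1 and 0 without pair 3, 11 and 6 without the filter, and 0 and 0 without the trend. The number of other retinoid genes called was 0 without and 2 with the replicate block (chosen after the data were seen: 2, 0 and 0 without pair 1, 2 or 3, 3 after TPM, 2 after median centring, 3 after quantile normalization, 0 without the filter and 0 without the trend). Aldh2 was the third gene. Their median difference of -0.06 became 0.022 after rescaling to TPM, which moved the median of all genes from -0.002 to 0.09, and ran from -0.11 to -0.01 when a sample was left out. Of the blocked calls 42.9% were higher as deposited, 61.5% after TPM, 46.0% after median centring and 47.4% after quantile normalization. The causes were not tested. Depth limits most the values on few reads, such as Stra6 (7 to 60 reads), Crabp2 (10 to 155), Crabp1 (39 to 166), Aldh1a7 in AdCre (21 to 115) and Aldh1a3 in AdGFP (66 to 144).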

Other observations

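Several other pathway genes stayed under the level asked for a test. Lrat, which stores retinol as esters in the liver and eye, was at most 0.053 FPKM in any sample. Adh1, a retinol dehydrogenase of the liver, was at most 0.097 FPKM. Rxrg, the receptor partner found in skeletal muscle, was at 0.229, 0.378 and 0.071 FPKM in AdGFP 1 to 3 and at 0, 0.169 and 0.031 FPKM in AdCre 1 to 3. Rbp7, a retinol binding protein of the endothelium of the heart and fat, was at 0.225, 0 and 0.057 FPKM in AdGFP 1 to 3 and at 0.522, 0.270 and 0.603 FPKM in AdCre 1 to 3, without overlap. A direct repeat of the hexamers searched was found in the promoter windows of 2 of 54 other pathway genes with a window, Cyp26a1 and Bco1, neither of which reached the level asked for a test. These genes were singled out after their values were seen.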
